A study of Mus musculus with 16 samples.

Results

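The miR-466, miR-467, miR-669 and miR-297 families are a group of rodent-specific microRNAs (miRNAs), and 80 of the 1907 mature mouse miRNAs in the deposited table belong to them. They were taken as every row whose miRNA name carried one of these 4 family numbers followed by a letter or a hyphen: 31 rows of miR-466, 30 of miR-669, 13 of miR-467 and 6 of miR-297. The RNA came from extracellular vesicles, the membrane particles that cells release, collected from the fluid of bronchoalveolar lavage, a saline wash of the airways and air sacs. All mice had the C57BL/6 background, and there were 4 groups of 4 libraries: bleomycin-injured Sdc1-/- mice, normal Sdc1-/- mice, bleomycin-injured wild-type mice and normal wild-type mice. The bleomycin libraries are labelled as day 21 of bleomycin, a lung-injuring compound. The normal mice had received phosphate-buffered saline instead of bleomycin. Sdc1 encodes syndecan-1, a heparan sulfate proteoglycan of the epithelial cell surface. The labels name no age, no bleomycin dose and no allele beyond Sdc1-/-, and a miRNA library cannot show the Sdc1 transcript itself. They also do not state that the 4 libraries of a group came from different mice, so p-values measure only the spread between libraries.

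Most hairpins of these families lie in 1 large intron of Sfmbt2, a gene for a Polycomb group protein. The cluster grew by repeated duplication in rodents, and it is best known from the placenta, where Sfmbt2 is imprinted and expressed from the paternal copy. Its hairpins are cut by Drosha and Dicer like those of other miRNAs, each leaving a 5p arm and a 3p arm, and the seed (bases 2 to 8 of the mature strand) selects the target messenger RNAs. Many family members are built of alternating U and G or C and A letters and resemble simple repeats, so that their reads can match several copies.

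In the mouse annotation (GENCODE M21, build GRCm38), Sfmbt2 spans chr2:10370510-10595253 on the plus strand. Of 81 hairpins named for the 4 families, 71 lay inside it, and 0 of these 71 overlapped an exon. All 71 sat within 51.6 kb of a single intron, chr2:10461473-10523944, which is intron 10 of a full-length Sfmbt2 transcript. The other 10 hairpins lay elsewhere in the genome. By hairpin name, 66 of the 80 mature members came only from Sfmbt2, 9 only from elsewhere and 5 from both. The deposited table holds no coordinates, so the places are those of the annotated hairpins of the same name.

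RefSeq (GRCm38.p6) gave a mature sequence for 8 of the 80 members, all of them with a hairpin outside Sfmbt2. They are shown because they display the repeat-like letters of the families and how their seeds differ. Sequences run 5′ to 3′, and capitals mark the seed.
miR-466i-3p: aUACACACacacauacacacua
miR-466j: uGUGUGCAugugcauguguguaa
miR-466k: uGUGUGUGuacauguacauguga
miR-466q: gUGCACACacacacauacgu
miR-467f: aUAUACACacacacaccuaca
miR-467g: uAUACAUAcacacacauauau
miR-467h: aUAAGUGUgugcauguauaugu
miR-669n: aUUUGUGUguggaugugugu
No pair of these 8 shares a seed, even within a family. A stretch of at least 8 bases that alternates between a pair of letters was found in 6 of the 8. It was found in 20 of all 1623 RefSeq mature miRNAs matched to the table (1.23%), and these 20 include the 6. The other members had no sequence here, so this holds for the 8 only. Of these 8 miRNAs, 7 had 0 reads in all 16 libraries, and miR-669n had 1 read, in normal Sdc1-/- library 4.

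Across the 16 libraries, 36 of the 80 members had at least 1 read (45.0%), against 1322 of the 1827 other miRNAs (72.4%). The deposited values are CPM, that is, the counts of a library scaled so that every library has the same sum, and dividing them by the value of 1 read returned whole reads. Depth ran from 1094908 reads in normal wild-type library 1 to 12837837 reads in normal Sdc1-/- library 3. A count of 0 therefore allows up to 2.74 CPM in the shallowest library and up to 0.234 CPM in the deepest (3 reads in each case). Such limits, and the intervals below, cover counting error only. The 44 members listed at 0 everywhere were 22 of 31 in miR-466, 16 of 30 in miR-669, 4 of 13 in miR-467 and 2 of 6 in miR-297. Of all 6100 member reads, 6089 were of miRNAs whose hairpins lie only in Sfmbt2, 10 of miRNAs with hairpins both there and elsewhere, and 1 of a miRNA with none there.

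miR-669c-5p, the 5p arm of a hairpin in the Sfmbt2 intron, carried nearly all of the signal. It held 5672 of the 6100 member reads (93.0%) and was above 0 in 16 of 16 libraries. The next member, miR-467a-5p, had 68 reads, so miR-669c-5p had 83.4 times as many. Among all miRNAs of a library, miR-669c-5p ranked between place 132 and place 214. Its partner arm, miR-669c-3p, had 0 reads in 95334273, so the 5p arm was at least 1891-fold higher (with a floor of 3 reads over all libraries).

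The most abundant name was not the one with the most hairpins. Mir669c is annotated once, at chr2:10509296-10509404 on the plus strand, inside the Sfmbt2 intron. Its neighbours among the family hairpins are Mir297c before it and Mir669a-2 after it. The miR-669a name covers 12 hairpins and had 79 reads over both arms, miR-467a covers 10 hairpins and had 102 reads, and miR-466b covers 8 hairpins and had 15 reads. How the authors assigned a read that matches several copies is not given in the sources used here, so the split between near-identical members is uncertain.

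**Figure D1:**
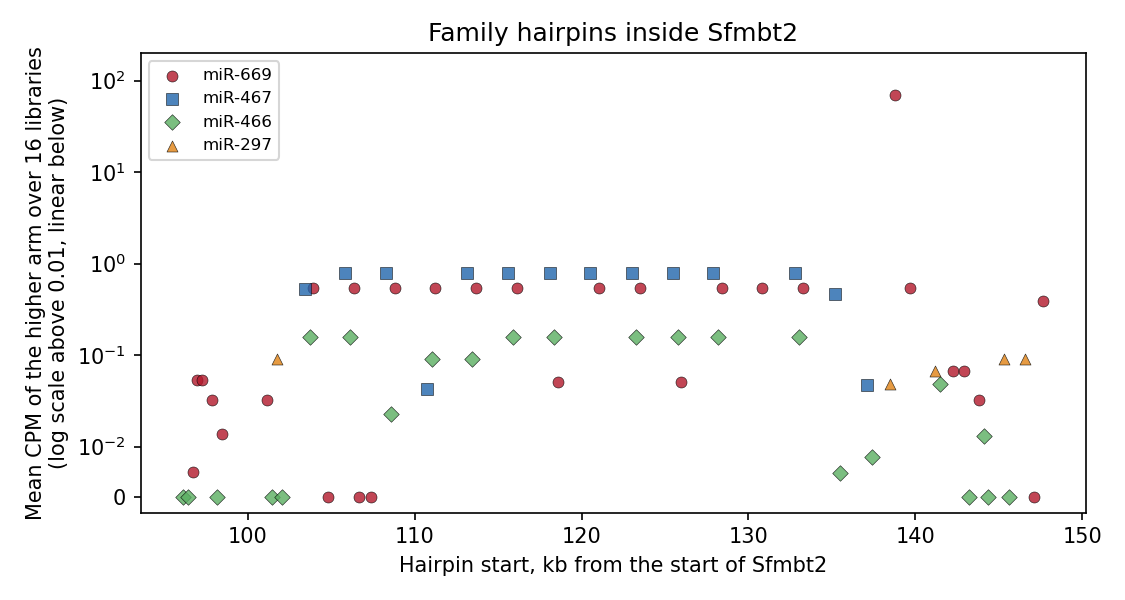
Each point is 1 family hairpin inside Sfmbt2, placed by its distance from the start of the gene (kb) and by the mean CPM over 16 libraries of the higher arm of that name (log scale above 0.01). Hairpins that share a name share a value; Mir669c stands at 69.1 CPM, and every other hairpin is below 1 CPM.

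The counts of the arms are given by family. Both arms of 33 hairpin names are in the table, and 25 of these names had reads: 9 from both arms and 16 from 1 arm. In miR-467 the 5p arm was the higher one for 5 of 5 names with reads, and in miR-669 for 9 of 11. Many of these names also had few reads. Over both arms miR-467b and miR-467d had 4 and 6 reads. For miR-669l, miR-669d, miR-669p, miR-669b, miR-669m and miR-669e it was 1, 4, 4, 6, 6 and 7. In miR-466 the 3p arm was higher for 6 of 6, of which miR-466a, miR-466p, miR-466e and miR-466d had 1, 1, 2 and 4 reads. In miR-297 the 3p arm was higher for 2 names and the 5p arm for 1. miR-467a had 68 reads of its 5p arm and 34 of its 3p arm, and miR-467e had 51 and 2. miR-466b had 2 reads of its 5p arm and 13 of its 3p arm. These are counts over names that may share reads, and no difference between families was tested.

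Bleomycin against normal was compared first within the Sdc1-/- mice. Only miR-669c-5p reached 10 CPM in at least 4 libraries, the level asked of a miRNA for testing, so the other 35 detected members and the 44 at 0 were not in the fit. miR-669c-5p was at 89.6, 69.1, 83.2 and 76.6 CPM in bleomycin Sdc1-/- libraries 1 to 4, against 43.1, 75.9, 29.6 and 37.2 CPM in normal Sdc1-/- libraries 1 to 4. Of the normal libraries, 3 lay below every bleomycin library, and normal library 2 lay among them. The means were 79.6 ± 8.79 CPM in bleomycin and 46.5 ± 20.4 CPM in normal Sdc1-/- mice (SD, n = 4 each). On the log2(CPM + 5) scale the difference was 0.79 with a standard error of 0.33 and a 95% interval of 0.10 to 1.47. With limma and Benjamini-Hochberg adjustment over the 325 miRNAs tested, the adjusted p was 0.0986 (unadjusted p 0.0264), so the difference did not pass 0.05. The comparison called 76 of 325 miRNAs (23.4%), and 0 of them were members. Neither edgeR nor DESeq2 on the recovered reads called miR-669c-5p in the Sdc1-/- comparison (adjusted p 0.0799 with edgeR and 0.112 with DESeq2).

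The result depended on the libraries included. Leaving out each library in turn gave log2 differences of 0.62 to 1.03, with limma adjusted p from 0.0220 to 0.244. Without normal Sdc1-/- library 2, the difference was 1.03 on the log2 scale with a standard error of 0.31, and the limma adjusted p was 0.0220. That library was among the 3 normal libraries with the fewest reads, together with normal wild-type libraries 1 and 2. miR-669c-5p was at 68.2 to 110 CPM in the 8 bleomycin libraries, at 70.01 to 75.9 CPM in those 3 normal libraries (1094908 to 2753095 reads) and at 29.6 to 50.0 CPM in the other 5 normal ones (8663688 to 12837837 reads). The 95% counting interval was 66.0 to 86.9 CPM in normal Sdc1-/- library 2 and 39.5 to 46.9 CPM in normal Sdc1-/- library 1. The bleomycin libraries held 2202990 to 7802229 reads. With log2 reads as a covariate the bleomycin difference in Sdc1-/- mice was 0.61 with a limma adjusted p of 0.142. Without the 3 normal libraries of fewest reads that difference was 1.03, and limma then called miR-669c-5p. The part of depth in the result was not tested beyond these fits.

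**Figure D2:**
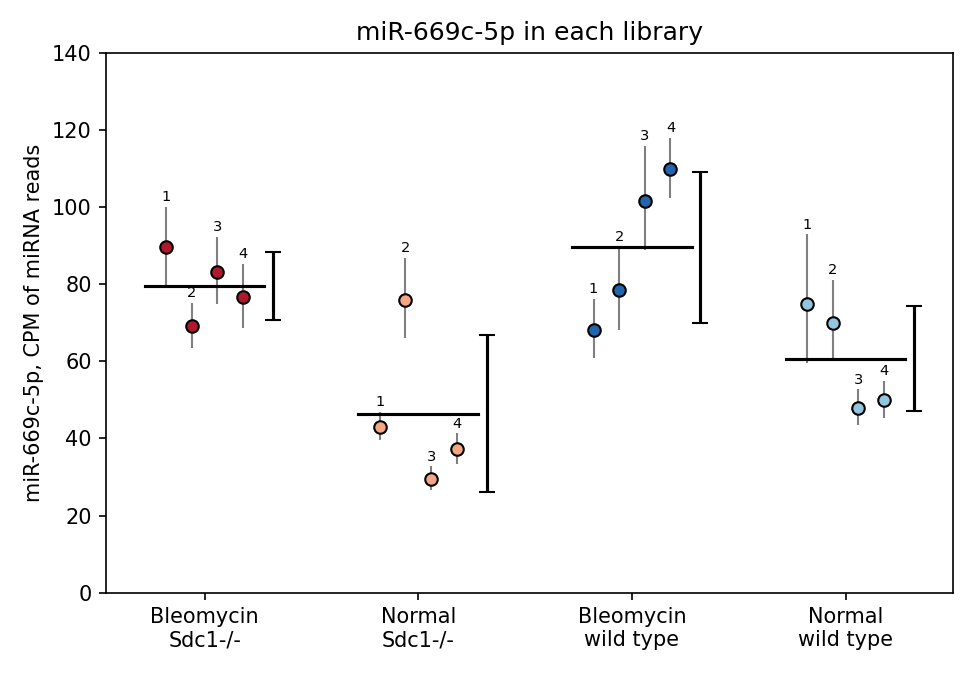
miR-669c-5p in CPM in each library (points, numbered by replicate) with its 95% counting interval (grey), and the group mean and SD (black). The 4 bleomycin Sdc1-/- libraries lie between 69.1 and 89.6 CPM, and normal Sdc1-/- library 2 at 75.9 CPM lies among them.

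Within wild-type mice the same miRNA overlapped between the groups. miR-669c-5p was at 68.2, 78.4, 102 and 110 CPM in bleomycin wild-type libraries 1 to 4, against 74.9, 70.01, 48.0 and 50.0 CPM in normal wild-type libraries 1 to 4. Normal libraries 1 and 2 were both higher than bleomycin library 1. The means were 89.6 ± 19.5 CPM in bleomycin and 60.7 ± 13.7 CPM in normal wild-type mice (SD, n = 4 each). The log2 difference was 0.53 with a standard error of 0.33 and a 95% interval of -0.16 to 1.21, and the limma adjusted p was 0.232. Of 325 miRNAs, 112 were called in wild-type mice (34.5%), and 0 of them were members, also at an unadjusted p of 0.05 and with edgeR or DESeq2 on the same rows (adjusted p 0.124 and 0.0975). Without the 3 normal libraries of fewest reads the difference was 0.79 with an adjusted p of 0.133.

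The genotypes were compared next. In normal mice miR-669c-5p averaged 46.5 ± 20.4 CPM in Sdc1-/- and 60.7 ± 13.7 CPM in wild type, a log2 difference of -0.40 with a 95% interval of -1.09 to 0.28 (limma adjusted p 0.488). After bleomycin it averaged 79.6 ± 8.79 CPM in Sdc1-/- and 89.6 ± 19.5 CPM in wild type, a log2 difference of -0.14 with an interval of -0.83 to 0.54 (limma adjusted p 0.924). The bleomycin effect in Sdc1-/- mice minus that in wild type was 0.26, with an interval of -0.70 to 1.23 (limma adjusted p 0.922). All 3 intervals hold 0, and each also reaches past 0.79 on the log2 scale in 1 of the directions. limma called 0 of 325 miRNAs between the genotypes in normal mice (0.0%), 2 of 325 after bleomycin (0.615%) and 0 of 325 in the interaction (0.0%). Neither of the 2 was a member, no member had an unadjusted p below 0.05 in these 3 comparisons, and edgeR and DESeq2 on the same rows called no member either.

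The other 79 members together had 428 reads. Summed per library, they reached 7.25, 7.95, 6.22 and 6.10 CPM in bleomycin Sdc1-/- libraries 1 to 4, against 5.16, 2.54, 4.13 and 2.32 CPM in normal Sdc1-/- libraries. In wild-type mice the sums were 15.7, 4.44, 0.454 and 5.53 CPM in bleomycin libraries 1 to 4, against 0, 0.391, 0.772 and 1.15 CPM in normal libraries. In Sdc1-/- mice every bleomycin library stood above every normal one, whereas in wild type bleomycin library 3 (1 read) lay among the normal libraries. Pooled over a group this was 141 reads in 20019627 (7.04 CPM) in bleomycin Sdc1-/- libraries and 146 in 37464884 (3.90 CPM) in normal ones. In wild-type mice it was 123 reads in 16472053 (7.47 CPM) with bleomycin and 18 in 21377709 (0.842 CPM) in normal libraries. Bleomycin wild-type library 1 held 71 of those 123 reads, and without it the pooled level was 4.35 CPM and the mean of the library sums 3.47 CPM, against 6.54 CPM with it. The normal Sdc1-/- sums, 2.32 to 5.16 CPM, were all above the normal wild-type sums, 0 to 1.15 CPM, but the 0 of normal wild-type library 1 allows up to 2.74 CPM. A sum over chosen members is given as a description, with no test.

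With miR-669c-5p included, the summed CPM of all members averaged 86.5 ± 8.54 in bleomycin and 50.0 ± 19.9 in normal Sdc1-/- mice (SD, n = 4 each). In wild-type mice it averaged 96.1 ± 15.7 with bleomycin and 61.3 ± 13.3 in normal mice. These sums repeat the values of miR-669c-5p, which held 81.3 to 100% of the member reads of a library. Its smallest share was in bleomycin wild-type library 1, where the other members had 71 reads.

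The number of members with at least 1 read went with depth as well as with group. It was 13, 21, 14 and 14 in bleomycin Sdc1-/- libraries 1 to 4, against 18, 5, 14 and 12 in normal Sdc1-/- libraries. It was 19, 9, 2 and 14 in bleomycin wild-type libraries, against 1, 2, 5 and 4 in normal wild-type libraries. Normal wild-type libraries 3 and 4 held 9062406 and 8663688 reads and showed 5 and 4 members, while normal Sdc1-/- library 4, at 9478786 reads, showed 12. Reduced by formula to the 1094908 reads of the shallowest library, the expected number was 6.73 ± 0.609 in bleomycin and 4.19 ± 1.12 in normal Sdc1-/- mice (SD, n = 4 each). At that depth it was 5.37 ± 3.16 in bleomycin and 1.58 ± 0.468 in normal wild-type mice. The bleomycin Sdc1-/- values (6.18 to 7.48) did not overlap the normal Sdc1-/- ones (3.21 to 5.49), and the bleomycin wild-type values (1.497 to 9.22) overlapped the normal wild-type ones (1 to 2.08).

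**Figure D3:**
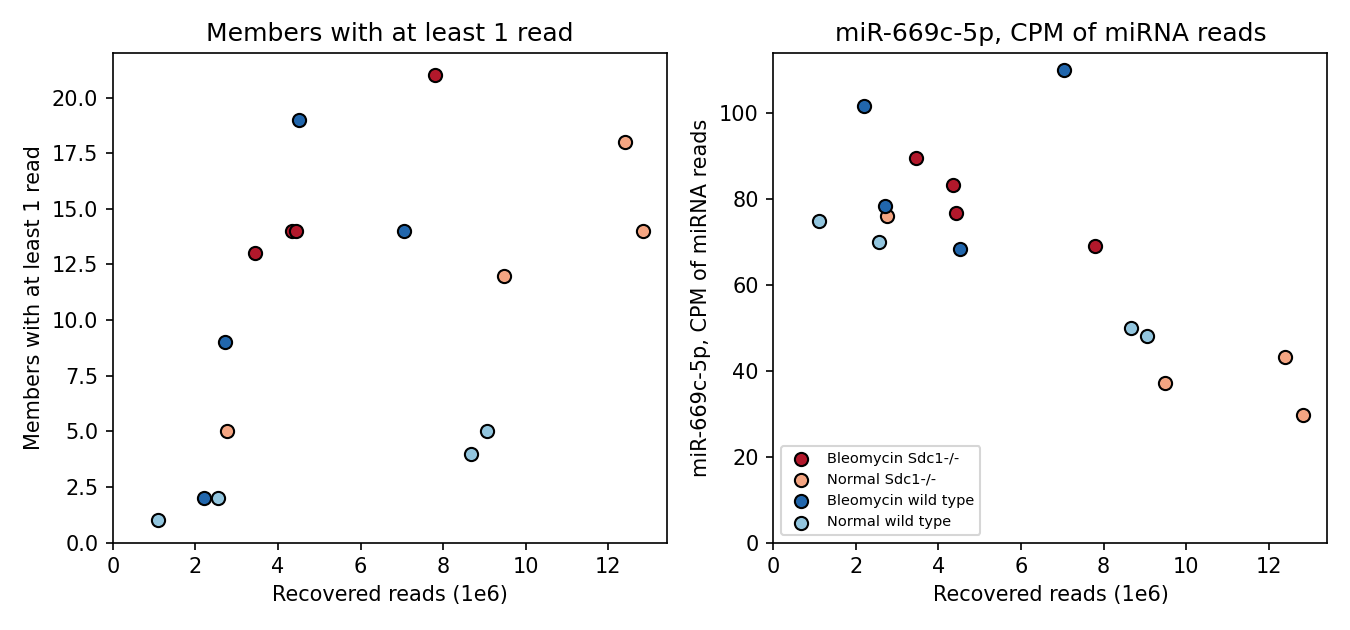
Members with at least 1 read (left) and miR-669c-5p in CPM (right) against recovered reads of the library, with 1 point per library coloured by group. Normal wild-type libraries 3 and 4, at 9062406 and 8663688 reads, show 5 and 4 members, and the 3 shallow normal libraries lie at 70.01 to 75.9 CPM in the right panel.

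Member by member, miR-467 was the best covered family after miR-669c-5p, with 212 reads. miR-467a-5p had 3, 3, 7 and 2 reads in bleomycin Sdc1-/- libraries 1 to 4, against 8, 0, 5 and 3 in normal Sdc1-/- libraries. In wild-type mice it had 25, 3, 0 and 4 reads with bleomycin, against 0, 0, 2 and 3 in normal libraries. The 25 reads of bleomycin wild-type library 1 (5.54 CPM) were the highest count of any member other than miR-669c-5p. Its partner miR-467a-3p was at 0.870, 1.03, 0.921 and 0.678 CPM in bleomycin Sdc1-/- libraries, against 0.161, 0, 0.312 and 0.211 CPM in normal ones. As listed, these groups do not overlap. The 0 was in normal Sdc1-/- library 2, where 3 reads are 1.09 CPM, so that library cannot be placed below the bleomycin ones. In wild-type mice miR-467a-3p had 7 reads with bleomycin and 1 read in normal libraries.

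miR-467c-5p, which has 1 hairpin, was at 1.45, 0.641, 0.691 and 1.13 CPM in bleomycin Sdc1-/- libraries, against 0.565, 0, 0.389 and 0.316 CPM in normal ones. As listed there was again no overlap, with the same limit for the 0 of normal Sdc1-/- library 2 (1.09 CPM). Wild-type mice had 13 reads of it with bleomycin and 1 in normal libraries. miR-467e-5p, also of 1 hairpin, had 18 reads in the bleomycin and 18 in the normal Sdc1-/- group, and the libraries overlapped. In wild-type mice miR-467e-5p had 7, 1, 0 and 7 reads with bleomycin, against 0 in all 4 normal libraries. Against a floor of 3 reads over the normal wild-type group, its pooled level was 6.49-fold higher with bleomycin. This ratio leaves out the counting error of the 15 bleomycin reads. The ratio also depends on depth and was 3.74-fold without normal wild-type library 3 and 3.86-fold without normal wild-type library 4. Leaving out a bleomycin wild-type library gave 4.77-fold (library 1) to 7.49-fold (library 3).

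**Figure D4:**
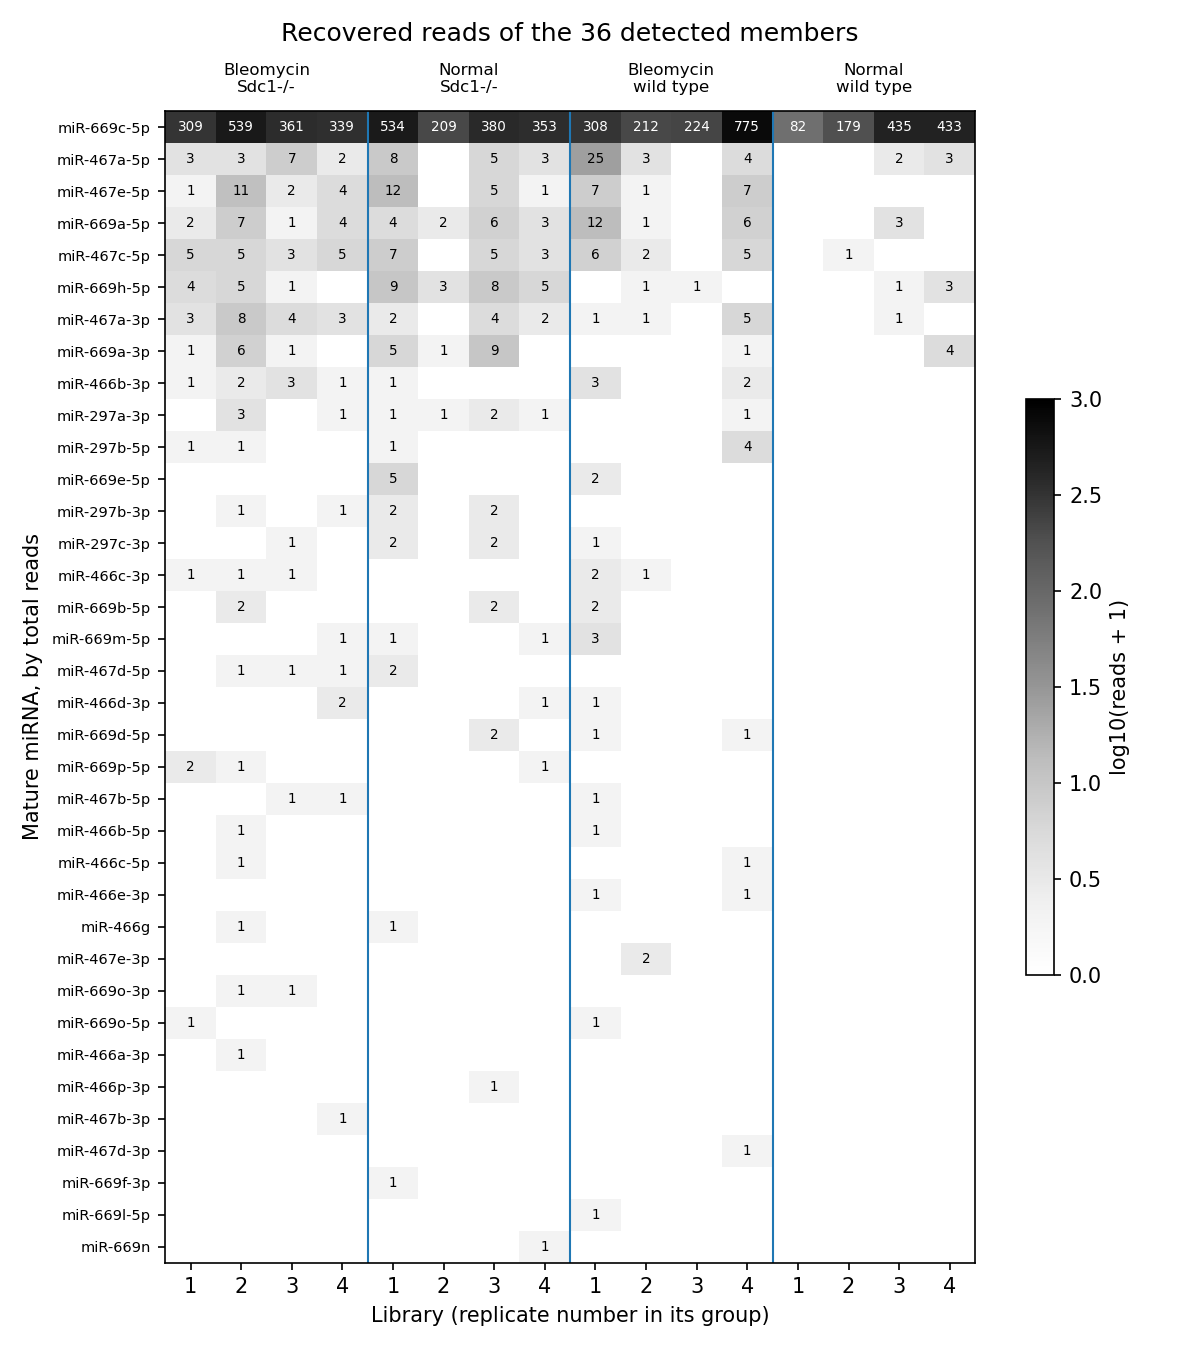
Recovered reads of the 36 detected members (one per line, by total reads) in each of the 16 libraries (columns by group and replicate), shaded by log10(reads + 1) with the count printed where above 0. Below miR-669c-5p the counts are between 1 and 25 reads, and the normal wild-type columns hold 18 reads in all.

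In the miR-669 family, miR-669a-5p was at 0.580, 0.897, 0.230 and 0.904 CPM in bleomycin Sdc1-/- libraries, against 0.323, 0.726, 0.467 and 0.316 CPM in normal ones, with overlap. Wild-type libraries held 12, 1, 0 and 6 reads with bleomycin, against 0, 0, 3 and 0 in normal libraries. Its 3p arm had 8 reads in the bleomycin and 15 in the normal Sdc1-/- group, and 1 read in the bleomycin and 4 in the normal wild-type group. The mean of the 3p arm was 0.322 CPM in bleomycin and 0.367 CPM in normal Sdc1-/- libraries, so it was not higher with bleomycin there. miR-669h-5p was at 0.726, 1.09, 0.623 and 0.527 CPM in normal Sdc1-/- libraries, against 0, 0, 0.110 and 0.346 CPM in normal wild-type libraries. The 0 allows up to 2.74 CPM in normal wild-type library 1 and up to 1.17 CPM in library 2. Neither of these libraries can therefore be placed below the Sdc1-/- ones. With bleomycin miR-669h-5p had 10 reads in the Sdc1-/- group and 2 in the wild-type group, and the libraries overlapped. miR-669m-5p, with 2 hairpins, had 6 reads in 4 libraries.

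The miR-466 family has the most rows and had 33 reads in all. Its most abundant member, miR-466b-3p, had 1, 2, 3 and 1 reads in bleomycin Sdc1-/- libraries, against 1, 0, 0 and 0 in normal ones, and 3, 0, 0 and 2 in bleomycin wild-type libraries, against 0 in all 4 normal ones. miR-466c-3p had 3 reads in bleomycin Sdc1-/- and 3 in bleomycin wild-type libraries, and 0 in the 8 normal libraries. Summed over the family this was 16 reads in bleomycin and 4 in normal Sdc1-/- libraries, and 13 reads in bleomycin and 0 in normal wild-type libraries. As listed, every bleomycin Sdc1-/- library (0.580 to 0.921 CPM) was above every normal Sdc1-/- library (0 to 0.161 CPM). The 0 was in normal Sdc1-/- library 2, where 3 reads are 1.09 CPM, so that library cannot be placed below the bleomycin ones.

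The miR-297 family had 29 reads, 10 of them of miR-297a-3p, whose partner miR-297a-5p had 0. Summed over the family it had 9 reads in bleomycin and 14 in normal Sdc1-/- libraries, and 6 reads in bleomycin and 0 in normal wild-type libraries. miR-297a-3p had 1, 1, 2 and 1 reads in normal Sdc1-/- libraries (0.0807 to 0.363 CPM), against 0 in all 4 normal wild-type libraries. There 3 reads are 0.331 to 2.74 CPM, so none of these can be placed below all of the Sdc1-/- libraries.

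**Figure D5:**
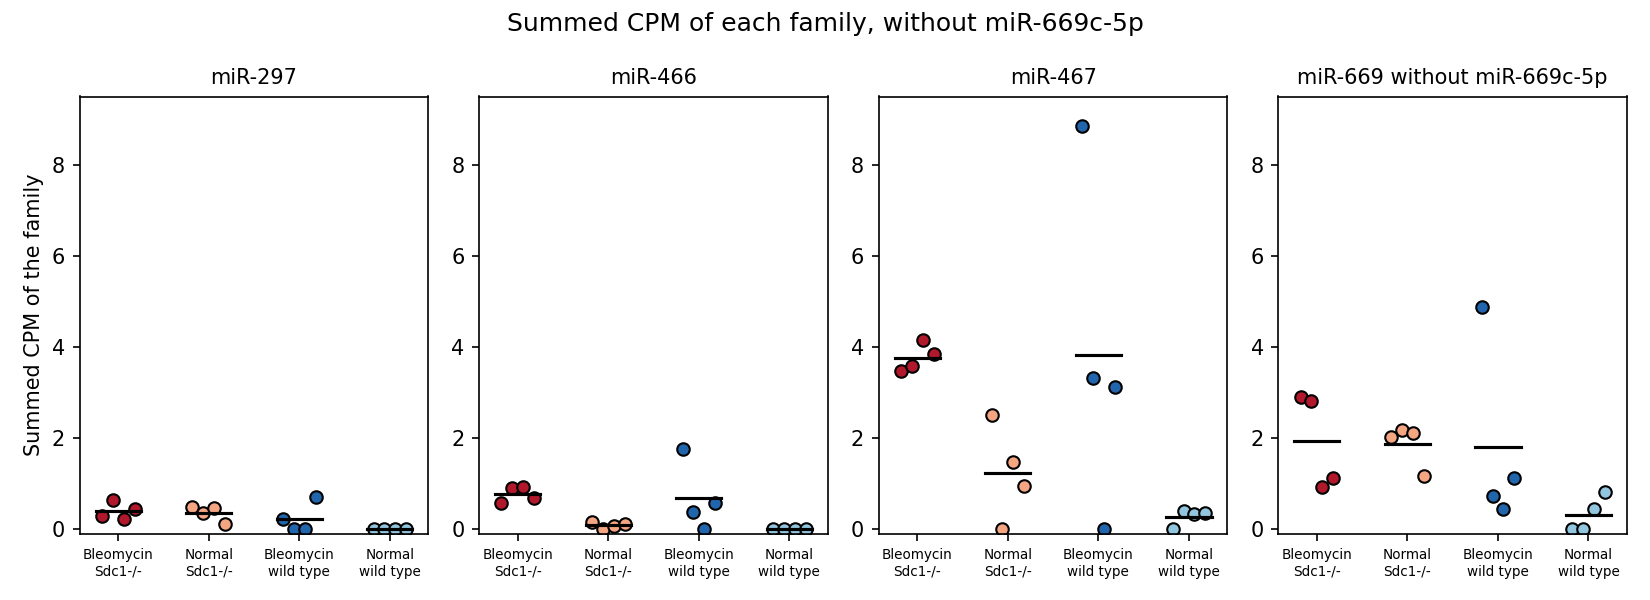
Summed CPM of each family in each library (points) with the group mean (line), leaving out miR-669c-5p. The miR-467 sum lies between 3.48 and 4.15 CPM in the 4 bleomycin Sdc1-/- libraries and between 0 and 2.50 CPM in the 4 normal Sdc1-/- ones, and bleomycin wild-type library 1 stands highest at 8.86 CPM.

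How often such separation occurred among all miRNAs sets the scale for these members. In Sdc1-/- mice, all 4 bleomycin libraries exceeded all 4 normal ones for 3 of 32 members with a read (9.38%), namely miR-467a-3p, miR-467c-5p and miR-466b-3p, against 122 of 1252 miRNAs (9.74%). The members' share was thus near that of all miRNAs. All such separations of members rest on few reads, and those against a library at 0 hold for the listed values only. In normal Sdc1-/- library 2, 3 reads are 1.09 CPM, and in normal wild-type libraries 1 and 2 they are 2.74 and 1.17 CPM. In wild-type mice 0 of 26 members separated in this direction, against 83 of 1214 miRNAs (6.84%). Between the normal genotypes, 2 of 24 members were as listed higher in every Sdc1-/- library, namely miR-669h-5p and miR-297a-3p (8.33%), against 15 of 1199 miRNAs (1.25%). For miR-297a-3p every normal wild-type library was at 0, and for miR-669h-5p libraries 1 and 2 were. Neither separation holds at the limit of 3 reads, so the 8.33% rests on listed values only. After bleomycin 0 of 33 members were higher in every Sdc1-/- library than in any wild-type one, against 24 of 1251 miRNAs (1.92%). No member was lower without overlap in any of these comparisons, against 4.95%, 2.88%, 1.42% and 0.959% of all miRNAs, in the same order.

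Without a limit on low values, all 1358 miRNAs above 0 could be fitted, including the 36 detected members. limma then called 1 member, miR-467a-3p, in Sdc1-/- mice (difference 0.18 on the log2(CPM + 5) scale, standard error 0.04, adjusted p 0.0149), among 91 of 1358 miRNAs called (6.7%). It called 0 members in wild-type mice, where 90 of 1358 were called (6.63%). edgeR on the recovered reads called 2 members in wild-type mice, miR-467e-5p (adjusted p 0.00545) and miR-467a-5p (log2 difference 3.19, adjusted p 0.0106), among 173 of 1358 (12.7%). Of the 32 miR-467a-5p reads in bleomycin wild-type mice, 25 were in library 1. Without that library the log2 difference was 1.10 and the edgeR adjusted p 0.624, and without normal wild-type library 2 the adjusted p was 0.0514. In the edgeR fit of all libraries no member was called in Sdc1-/- mice, where 159 of 1358 were (11.7%). These calls rest on few reads: 18 with bleomycin and 8 in normal Sdc1-/- libraries for miR-467a-3p. In wild-type mice they were 32 with bleomycin and 5 in normal libraries for miR-467a-5p, and 15 and 0 for miR-467e-5p. Neither fit called a member between the genotypes, where limma called 0 of 1358 in normal mice (0.0%) and 4 after bleomycin (0.295%), and edgeR 25 (1.84%) and 6 (0.442%). No interaction call was a member either, among 0 with limma (0.0%) and 7 with edgeR (0.515%).

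Markers of the cells that could release such vesicles moved with bleomycin beside these values. Of 5 leukocyte miRNAs, 3 rose and 0 fell in Sdc1-/- mice with limma at an adjusted p of 0.05, and 2 rose and 1 fell in wild-type mice. Their summed level was 224 to 522 CPM in bleomycin and 128 to 281 CPM in normal Sdc1-/- libraries, and 179 to 833 CPM in bleomycin and 197 to 393 CPM in normal wild-type libraries. Of 7 epithelial miRNAs, 1 fell in Sdc1-/- and 4 fell in wild-type mice, and none rose. The epithelial sum was 34618 to 57855 CPM in bleomycin and 42208 to 67703 CPM in normal Sdc1-/- libraries, and 17398 to 53786 CPM in bleomycin and 59771 to 98883 CPM in normal wild-type libraries. Of 5 erythrocyte miRNAs, 3 reached the level for testing, and 1 of these rose in each genotype. The sum of all 5 was 1047 to 4749 CPM in bleomycin and 98.0 to 3470 CPM in normal Sdc1-/- libraries. In wild-type mice that sum was 558 to 12839 CPM in bleomycin and 341 to 5757 CPM in normal libraries. Of 5 mesenchymal miRNAs, 1 rose in Sdc1-/- and 3 in wild-type mice, of 2 endothelial ones 0 and 1 rose, and of 3 muscle and liver ones none was called. The mesenchymal sum was 39341 to 46754 CPM in bleomycin and 21553 to 142493 CPM in normal Sdc1-/- libraries, and 36136 to 52140 CPM in bleomycin and 36374 to 82520 CPM in normal wild-type libraries. The endothelial sum was 977 to 2203 CPM in bleomycin and 407 to 3647 CPM in normal Sdc1-/- libraries, and 1068 to 3151 CPM in bleomycin and 342 to 1228 CPM in normal wild-type libraries. The muscle and liver sum was 918 to 1958 CPM in bleomycin and 334 to 3589 CPM in normal Sdc1-/- libraries, and 198 to 2070 CPM in bleomycin and 707 to 4726 CPM in normal wild-type libraries. No marker on these lists was at 0 in all 16 libraries. The part of these cell types in the values of the members was not tested, and fewer cells of a type cannot be told apart from less RNA per cell.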

How the data were processed

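The authors deposited 1 table of CPM for 1907 mature miRNAs in 16 libraries of vesicle RNA. Per the submitters' processing notes, Bowtie2 2.2.3 and the human build GRCh38 were named, with no role given; read counting, trimming and the treatment of multiple matches were not given. All deposited CPM values were whole multiples of the value of 1 read (100% within 0.001), which gave whole reads. Rows at 10 CPM or more in at least 4 libraries (325) were fitted as log2(CPM + 5) with limma 3.58.1 in R 4.3.3 (4 group means, trend), with Benjamini-Hochberg adjustment at 0.05 within each of 5 comparisons. A fold change on this scale is understated for low miRNAs. The fit was tested on simulated data. edgeR 4.0.16 and DESeq2 1.42.0 on recovered reads, other pseudocounts (1 and 20), filters, scalings, a replicate block and leaving out each library were alternatives. The fits without the 3 normal libraries of fewest reads, with log2 reads as a covariate, without miR-21a-5p, with edgeR and no filter, and the fits with no filter that left out each library were added after seeing the data. Expected detection used the hypergeometric formula, and counting intervals the exact Poisson 95% limits. Hairpins came from GENCODE M21 by name, sequences from RefSeq. Per-library sums and detection counts have no test. Named were every tested member, the 12 members of highest mean CPM, each family's highest member with its partner arm, and the highest of an X-linked cluster; the 8 miRNAs with sequences were named because RefSeq held their sequences. Members and lists were chosen with earlier results of these data known.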

Additional observations from a re-analysis of the deposited data

Results flagged for a closer look

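Among 36 sets of 4 libraries looked at (9 measures in 4 groups), 4 held a library whose gap to the nearest other passed Dixon's 95% critical value. For values that are not near 0, chance does so in about 1 of 20 sets. Bleomycin Sdc1-/- library 2 showed 21 members with a read, against 13 or 14 in the other 3 libraries of its group, and it was also the deepest of the 4 at 7802229 reads. The other 3 sets were of normal wild-type libraries where 3 of the 4 values were 0, and there any lone read passes, so that these flags carry no information on a library. miR-669a-5p was at 0.331 CPM in normal wild-type library 3 (3 reads) and at 0 in the other 3. miR-467c-5p was at 0.391 CPM in normal wild-type library 2 (1 read) and at 0 in the other 3. miR-467a-3p was at 0.110 CPM in normal wild-type library 3 (1 read) and at 0 in the other 3. Each of these 3 values lies at or under the level of 3 reads in its library.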

How the results depend on the processing

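No member was called between the genotypes or in the interaction under any alternative. For bleomycin in Sdc1-/- mice, miR-669c-5p was called without normal Sdc1-/- library 2 (log2 difference 1.03, adjusted p 0.0220; 0 to 1 members called over the libraries left out one at a time), and, chosen after seeing the data, without the 3 normal libraries of fewest reads (1.03, adjusted p 0.0261) and with CPM recomputed without miR-21a-5p (1.16, adjusted p 0.0105). With no limit on low values 1 member, miR-467a-3p, was called there by limma. In wild-type mice 1 member was called with CPM recomputed without miR-21a-5p (0.88, adjusted p 0.0374) and 2 with edgeR and no limit, both chosen after seeing the data. Removing miR-21a-5p moved the median of all miRNAs to 0.43 in Sdc1-/- and 0.34 in wild-type mice; relative to that median miR-669c-5p differed by 0.72 and 0.54, against 0.68 and 0.53 in the main limma fit. Over all 32 fits the adjusted p of miR-669c-5p ran from 0.0105 to 0.594 in Sdc1-/- and from 0.0374 to 0.472 in wild-type mice, and the difference stayed positive. The interaction turned negative with DESeq2 (-0.0072) and with edgeR and no limit (-0.16), and the cause was not tested.

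By the median, same-numbered libraries of different groups were no more alike than differently numbered ones. The median correlation of their residuals was -0.035 (range -0.63 to 0.80), against -0.022, and 9 of 24 same-numbered pairs were above 0.1. With a replicate block 0 members were called, and miR-669c-5p in Sdc1-/- mice had an adjusted p of 0.132. The calls with no limit on low values were also refitted without each library: miR-467a-3p and miR-467e-5p stayed called (adjusted p up to 0.0434 and 0.0362), and miR-467a-5p was lost without bleomycin wild-type library 1 (0.624) or normal wild-type library 2 (0.0514).

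The summed CPM moved when miR-669c-5p was left out, to 6.88, 3.54, 6.54 and 0.579 in bleomycin Sdc1-/-, normal Sdc1-/-, bleomycin wild-type and normal wild-type mice; these ran over 6.52 to 7.14, 2.997 to 3.94, 3.47 to 8.57 and 0.388 to 0.773 when 1 library was left out. Leaving out 1 library in turn with miR-669c-5p included gave group means of 83.0 to 89.6, 40.5 to 55.4, 89.6 to 101 and 56.8 to 65.5 CPM in that order. In that order also, members detected fell to 6, 5.75, 4.25 and 2 at 3 or more reads, to 2.50, 1.25, 2.25 and 1 at 1 CPM or more, and to 6.73, 4.19, 5.37 and 1.58 at the depth of the shallowest library. No member besides miR-669c-5p had more than 25 reads in a library, so depth limits every statement on them. No 2 members with reads had identical rows, so counting every row gave the same values.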

Other observations

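A second group of rodent miRNAs was also read, the X-linked cluster of miR-463, miR-465, miR-470, miR-471, miR-741 to miR-743, miR-871, miR-878, miR-880, miR-881 and miR-883, known for expression in the testis. Of its 34 rows, 24 were above 0, with 1068 reads in all. Of these rows 0 reached 10 CPM in 4 libraries, so none was in the main limma fit. The fits with no limit on low values held the rows above 0, and their results for this cluster are not reported here. Summed per library, the cluster stood at 41.7, 24.4, 30.2 and 21.9 CPM in bleomycin Sdc1-/- libraries 1 to 4, against 0.0807, 8.72, 0 and 1.05 CPM in normal Sdc1-/- libraries. Wild-type mice had 17.1, 41.4, 46.3 and 15.9 CPM in bleomycin libraries 1 to 4, against 0.913, 3.13, 2.98 and 3.69 CPM in normal libraries. All 8 bleomycin libraries were above all 8 normal ones. Bleomycin wild-type library 3, which had 1 read of the Sfmbt2-type members other than miR-669c-5p, was the highest of the 16 for the X-linked cluster.

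The highest of the X-linked cluster by mean CPM was miR-465b-5p, with 200 reads in 13 libraries and a mean of 3.25 CPM. It stood at 9.57, 3.59, 5.53 and 3.84 CPM in bleomycin Sdc1-/- libraries, against 0, 0.726, 0 and 0 CPM in normal ones. Wild-type mice had 1.77, 8.87, 11.8 and 1.70 CPM with bleomycin, against 0.913, 1.17, 0.883 and 1.62 CPM in normal libraries. As listed, these libraries did not overlap between bleomycin and normal in either genotype. In wild type the gap was 1.70 against 1.62 CPM, less than the 0.142 CPM of 1 read in bleomycin library 4. Among all miRNAs, 9.74% were higher without overlap with bleomycin in Sdc1-/- mice and 6.84% in wild-type mice. The values were looked at after the list had been chosen with earlier results of these data known and are given with no test.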
